A study of Mus musculus with 12 samples.

Results

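A set of 6 genes of the skin's cross-linking and filaggrin-processing machinery were followed in mouse skin: the transglutaminases Tgm1, Tgm2, Tgm3 and Tgm5, the caspase Casp14 and the aspartic protease Asprv1. They were chosen by name, as 6 of the 47643 genes in each table, and not by a threshold on their values, although earlier results of these data were known. RNA was sequenced in 12 libraries, 3 in each of 4 groups. The groups were whole skin of Adam17 knockout mice (skin KO), whole skin of wild type mice (skin WT), epidermis of Adam17 knockout mice (epidermis KO) and epidermis of wild type mice (epidermis WT). All mice were on a C57BL/6 background and 10 weeks old. The knockout was conditional: floxed Adam17 alleles (ADAM17fl/fl) were recombined by Sox9-Cre, in which Cre is driven by Sox9, a gene known for its activity in hair follicle stem and progenitor cells. Cells outside that lineage keep the floxed gene, and the labels do not say whether the wild type mice carried Cre or the floxed alleles. Adam17 encodes a membrane-bound protease that sheds ligands of the epidermal growth factor receptor.

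Transglutaminases join glutamine and lysine residues of neighbouring proteins. In the upper epidermis this welds involucrin, loricrin, small proline-rich proteins and repetin into the cornified envelope, the insoluble shell of the dead surface cells. Tgm1 is anchored in the membrane of keratinocytes and begins the shell, Tgm3 and Tgm5 add to it inside the cell, and Tgm2 is the tissue transglutaminase found in dermal, vascular and immune cells. Filaggrin is made as a large precursor. In the mouse, Asprv1 (also called SASPase) cuts the linkers between its repeats, and Casp14, a caspase of cornifying keratinocytes that takes no part in apoptosis, helps to break filaggrin down into the amino acids that keep the surface moist.

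The start regions of 3 of the genes are shown, because Tgm3 and Casp14 had the largest rises in both tissues and Asprv1, like Tgm2, changed in opposite directions in the 2 tissues. Each window runs from 250 bases before to 50 bases after the start site in the RefSeq annotation of GRCm38.p6, 5′ to 3′ on the strand of the gene. Capitals mark matches, on either strand, to 5 short motifs of promoters. The TATA box, at which the basal machinery assembles, was searched as TATAAA. The GC box, known for binding Sp1, was searched as GGGCGG. The CCAAT box, bound by NF-Y, was searched by its own letters. The AP-1 site, bound by Fos and Jun proteins, was searched as TGANTCA. The E-box, bound by proteins of the helix-loop-helix family, was searched as CACGTG, and no motif overlaps another in the windows shown. The windows lie at chr2:130012090-130012389 (plus strand, Tgm3), chr10:78718244-78718543 (minus strand, Casp14) and chr6:86627924-86628223 (plus strand, Asprv1).
Tgm3: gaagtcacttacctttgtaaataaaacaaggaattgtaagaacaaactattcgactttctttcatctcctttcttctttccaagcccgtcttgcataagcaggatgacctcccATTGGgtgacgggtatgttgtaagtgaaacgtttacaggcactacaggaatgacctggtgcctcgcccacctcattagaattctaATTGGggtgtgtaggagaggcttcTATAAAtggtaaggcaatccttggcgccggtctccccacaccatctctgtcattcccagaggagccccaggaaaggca
Casp14: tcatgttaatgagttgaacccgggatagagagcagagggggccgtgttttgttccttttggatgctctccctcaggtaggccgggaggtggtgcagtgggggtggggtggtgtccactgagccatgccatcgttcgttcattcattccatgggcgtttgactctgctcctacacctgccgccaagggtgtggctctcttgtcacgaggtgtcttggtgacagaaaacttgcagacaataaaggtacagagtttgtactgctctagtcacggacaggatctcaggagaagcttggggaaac
Asprv1: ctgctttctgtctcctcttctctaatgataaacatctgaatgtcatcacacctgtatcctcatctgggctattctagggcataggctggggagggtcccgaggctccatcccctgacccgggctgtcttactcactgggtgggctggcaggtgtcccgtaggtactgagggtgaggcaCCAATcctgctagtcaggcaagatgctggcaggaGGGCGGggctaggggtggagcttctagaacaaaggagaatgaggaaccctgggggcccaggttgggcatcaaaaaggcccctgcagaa
The Tgm3 window held a TATA box and a pair of CCAAT boxes on the opposite strand, the Asprv1 window held a GC box and a CCAAT box, and the Casp14 window matched none of the 5 motifs. Of all 32851 promoter windows of this length, 13.6% held the TATA box, 35.7% the GC box and 37.4% the CCAAT box. The AP-1 site, in 7.81% of all windows, and the E-box, in 7.15%, matched none of the windows of the 5 members that had one. Tgm2 had no window.

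Library totals lay between 12208522 and 16743144 expected counts, and in each library 3 counts amount to between 0.179 and 0.246 CPM, the unit that scales counts to the library total. CPM values of single libraries are given in the order of replicates 1, 2 and 3, scaled between all 12 libraries by the trimmed mean of M-values (TMM). Adam17 itself had 41.6, 52.1 and 52.5 CPM in skin KO, against 72.3, 96.3 and 94.1 CPM in skin WT. In epidermis it had 48.4, 58.1 and 47.3 CPM in KO and 78.9, 86.4 and 79.4 CPM in WT. Knockout libraries were lower than wild type in both tissues without overlap, with log2 fold changes of -0.75 ± 0.16 in skin (SE, adjusted p = 0.00797) and -0.66 ± 0.12 in epidermis (adjusted p = 0.00213). The skin call was lost with the summed Y-linked CPM as a covariate on a log scale (adjusted p = 0.0997) or a linear scale (0.0800) and without KO replicates 1 and 3 (0.170), and the epidermal one with the log covariate (-0.12, adjusted p = 0.893). Reads of 4 genes of the Y chromosome (Uty, Kdm5d, Ddx3y and Eif2s3y) numbered 1728, 0 and 1034 in skin KO and 1781, 213 and 679 in epidermis KO, and 0 in all 6 WT libraries. Xist, made from an inactive X chromosome, had reads in the skin KO replicate 3 (319) and in the epidermis KO replicates 2 and 3 (2511 and 2050) beside the Y-linked ones. Y-linked reads thus occurred in knockout libraries alone, and in epidermis in every one of them, so that sex and genotype cannot be told apart there. The 6 skeletal muscle genes summed to between 464 and 2457 CPM in skin KO and between 7142 and 58634 CPM in skin WT, and to at most 22.3 CPM in an epidermis library, with all 6 lower in skin KO. The 6 adipocyte genes summed to between 44.1 and 116 CPM in skin KO and between 544 and 917 CPM in skin WT, again with all 6 lower in KO, and to at most 3.80 CPM in an epidermis library.

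All 6 genes passed the expression filter, and all 6 differed between knockout and wild type in each tissue at an adjusted p under 0.05, without overlap between the groups' libraries. In skin, 5 were higher and Tgm2 was lower in KO. In epidermis, 5 were higher and Asprv1 was lower in KO. The background was broad: 45.5% of the 14906 genes tested in skin and 51.5% of the 13632 tested in epidermis were called in either direction. In skin 22.2% were called higher and 23.3% lower in KO, and 25.8% were higher and 32.2% lower without overlap. In epidermis 26.2% were called higher and 25.3% lower, and 30.4% and 31.6% did not overlap in those directions. The median log2 fold change of the 6 genes was 1.21 in skin and 1.83 in epidermis, against -0.00 and 0.00 over all genes tested. All adjusted p-values are from edgeR (quasi-likelihood F test, corrected over every gene of the fit by Benjamini and Hochberg), unless another tool is named. The labels do not say that replicates came from separate mice, so p-values measure the spread between these libraries only.

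**Figure D1:**
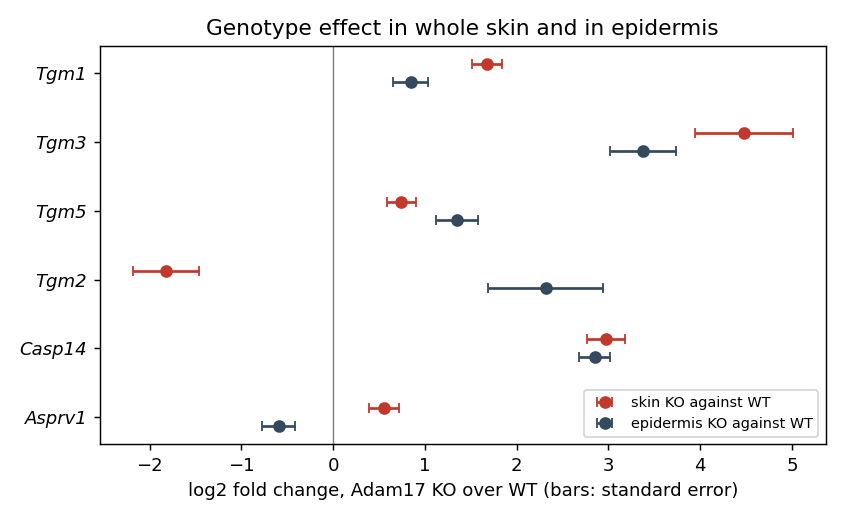
Log2 fold change (KO over WT) of the 6 genes in skin and in epidermis; points are edgeR estimates and bars are standard errors (n = 3 libraries a group). Tgm1, Tgm3, Tgm5 and Casp14 lie above 0 in both tissues, whereas Tgm2 lies at -1.82 in skin and 2.32 in epidermis, and Asprv1 at 0.56 in skin and -0.59 in epidermis.

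Among the transglutaminases of keratinocytes, Tgm3 changed most. This enzyme, made as a precursor that proteases activate, had 179, 208 and 164 CPM in skin KO, against 14.1, 2.98 and 9.41 CPM in skin WT. Epidermis libraries had 358, 188 and 161 CPM in KO, against 32.5, 19.9 and 16.4 CPM in WT. The lowest KO library stood far above the highest WT library in each tissue, and the first epidermis KO library stood apart upward. Tgm3 was 22.2-fold higher in skin KO (log2 fold change 4.47 ± 0.53 SE, adjusted p = 9.87e-04) and 10.4-fold higher in epidermis KO (3.37 ± 0.36, adjusted p = 1.65e-04). The gene, ENSMUSG00000027401.9 in the tables, lies on chr2 at 130012349-130050399 (GRCm38, plus strand). Tgm3 is also known from the inner root sheath of the hair follicle. The summed level of 7 inner root sheath genes was 5798, 255 and 1785 CPM in skin KO and 540, 4.91 and 234 CPM in skin WT, so these groups overlapped, and the same sum was 87.9, 431 and 815 CPM in epidermis KO and 13.4, 223 and 249 CPM in epidermis WT. Its part in the Tgm3 difference was not tested.

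Tgm1, the membrane-bound enzyme whose loss causes lamellar ichthyosis in humans, had 285, 388 and 374 CPM in skin KO, against 115, 126 and 106 CPM in skin WT. In the epidermis Tgm1 had 267, 231 and 166 CPM in KO, against 100.3, 137 and 136 CPM in WT. The groups did not overlap, but the third epidermis KO library came near the highest WT library. Tgm1 was 3.21-fold higher in skin KO (1.68 ± 0.16, adjusted p = 4.90e-04) and 1.80-fold higher in epidermis KO (0.85 ± 0.19, adjusted p = 0.00647). With the Y-linked CPM as a linear covariate the epidermal difference was 0.66 with an adjusted p of 0.0700. The gene (ENSMUSG00000022218.15) lies on chr14 at 55700009-55713926, minus strand.

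Tgm5, whose loss causes peeling of the skin of hands and feet in humans, had 80.5, 100.5 and 78.0 CPM in skin KO, against 49.4, 51.4 and 64.1 CPM in skin WT. The epidermal values were 98.7, 99.2 and 96.3 CPM in KO, against 56.0, 32.9 and 27.7 CPM in WT. The 3 epidermis KO libraries were nearly equal, whereas the WT libraries spread widely, with the first the highest. Tgm5 was 1.68-fold higher in skin KO (0.75 ± 0.15, adjusted p = 0.00787) and 2.55-fold higher in epidermis KO (1.35 ± 0.23, adjusted p = 0.00166). The gene (ENSMUSG00000053675.8) lies on chr2 at 121046111-121085841, minus strand, and Tgm7 follows within 7723 bases.

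Markers of the keratinocyte layers did not rise together as Tgm1, Tgm3 and Tgm5 did. The summed level of 6 suprabasal genes lay between 34348 and 40323 CPM in skin KO and between 20649.8 and 26599 CPM in skin WT. In epidermis it lay between 58572 and 84535 CPM in KO and between 41068 and 50049 CPM in WT. Within that list 1 gene rose and 2 fell in skin, and 2 rose and 2 fell in epidermis, so the sum followed few genes. The 6 basal genes summed to between 16680.2 and 21419 CPM in skin KO and between 15035 and 16677 CPM in skin WT, where 1 rose (Krt14, 2.82-fold) and 2 fell (Krt15, 7.11-fold, and Col17a1, 2.38-fold), named after their values were seen. They summed to between 11995 and 16223 CPM in epidermis KO and between 29356 and 35007 CPM in epidermis WT, where 5 of the 6 fell. In tissue RNA, more cells of a type and more RNA per cell cannot be told apart, and the part of the layers in the enzymes' differences was not tested.

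**Figure D2:**
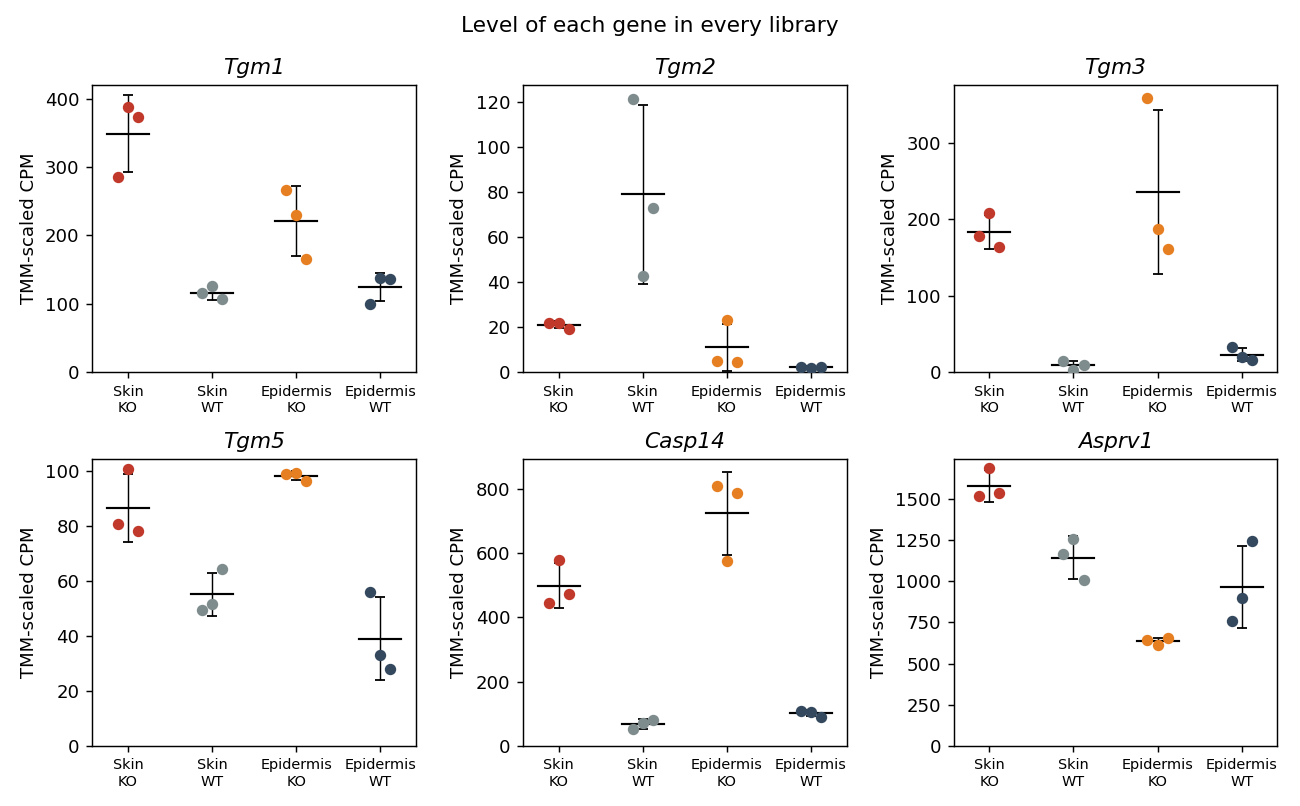
TMM-scaled CPM of the 6 genes in every library, with KO left of WT in each tissue. Points are libraries, lines are group means and bars are SD (n = 3). Within each tissue the KO and WT points of every gene are separate, and the second epidermis KO library stands apart for Tgm2, at 23.0 CPM beside 5.06 and 4.66 CPM.

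Tgm2 changed in opposite directions in the 2 tissues. In whole skin it had 22.0, 21.8 and 19.3 CPM in KO, against 122, 42.5 and 72.7 CPM in WT. In epidermis it had 5.06, 23.0 and 4.66 CPM in KO, against 2.38, 1.86 and 2.42 CPM in WT. The skin KO libraries were close together and below every skin WT library, which differed widely among themselves, whereas every epidermis KO library was above the WT libraries and the second of them by far. Tgm2 was 3.53-fold lower in skin KO (-1.82 ± 0.36, adjusted p = 0.00669) and 4.98-fold higher in epidermis KO (2.32 ± 0.63, adjusted p = 0.0138). Without the second epidermis KO library the epidermal log2 difference was 1.15 (adjusted p = 0.0124). The epidermal call was lost with limma-voom (1.87, adjusted p = 0.0567) and without the second epidermis WT library (2.19, adjusted p = 0.0519). The skin call was lost without KO replicates 1 and 3, which held Y-linked reads (adjusted p = 0.121), and with the Y-linked covariate on a log scale (0.0716) or a linear scale (0.0506).

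Marker sums of fibroblasts, endothelium and macrophages were lower in skin KO and higher in epidermis KO, as Tgm2 was. The 7 fibroblast genes summed to 735, 852 and 1682 CPM in skin KO, against 2075, 2248 and 2815 CPM in skin WT, and 4 of them fell and 3 were not called. In epidermis they summed to 85.8, 119 and 61.5 CPM in KO, against 6.89, 10.5 and 5.96 CPM in WT, and all 6 that could be tested rose. The 6 endothelial genes summed to between 33.9 and 41.1 CPM in skin KO and between 111 and 118 CPM in skin WT, and all 6 fell. Their sums were 4.74, 13.3 and 7.20 CPM in epidermis KO, against 2.30, 2.14 and 2.68 CPM in epidermis WT, where up to 2 of the 6 genes were at 0 in a library. Only 2 of the 6 could be tested in epidermis, with 1 higher and 1 not called. The 6 macrophage genes summed to between 78.2 and 169 CPM in skin KO and between 195 and 218 CPM in skin WT, with 2 lower and 4 not called, and to between 33.1 and 64.0 CPM in epidermis KO and between 19.2 and 20.4 CPM in epidermis WT, with 4 of 5 tested higher. The second epidermis KO library, the highest for Tgm2, was also the highest of the epidermis libraries for the fibroblast and the endothelial sum, but not for the macrophage sum. In skin the fibroblast sum ran otherwise. WT replicate 1 was the highest WT library for Tgm2 (122 CPM) and the lowest for that sum. KO replicate 3 was the lowest KO library for Tgm2 (19.3 CPM) and the highest for that sum. In skin WT the muscle sum (58634, 7142 and 18341 CPM) had the same order of libraries as Tgm2. The sum of the 6 neutrophil genes went the other way in skin, with 35.9 to 48.8 CPM in skin KO and 19.8 to 26.1 CPM in skin WT. It was between 47.5 and 78.0 CPM in epidermis KO and between 5.70 and 8.06 CPM in epidermis WT. Of these genes 3 could be tested in each tissue, with 2 higher and 1 lower in skin and 2 higher and 1 not called in epidermis. Cxcr2 rose in skin (28.6 against 0.258 CPM), whereas Mmp9 fell (11.4 against 23.2 CPM), both named after their values were seen. The KO sums were mostly Cxcr2, and Ly6g, Ngp and Camp of the same list had at most 0.717 CPM in any library. Muscle and adipocyte sums, given above, were lower in skin KO as well. The part of these cells in the Tgm2 values was not tested. Tgm2 (ENSMUSG00000037820.15, chr2 at 158116402-158146436, minus strand) also overlaps Rprd1b on the opposite strand, which held 5855 reads over the 12 libraries.

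**Figure D3:**
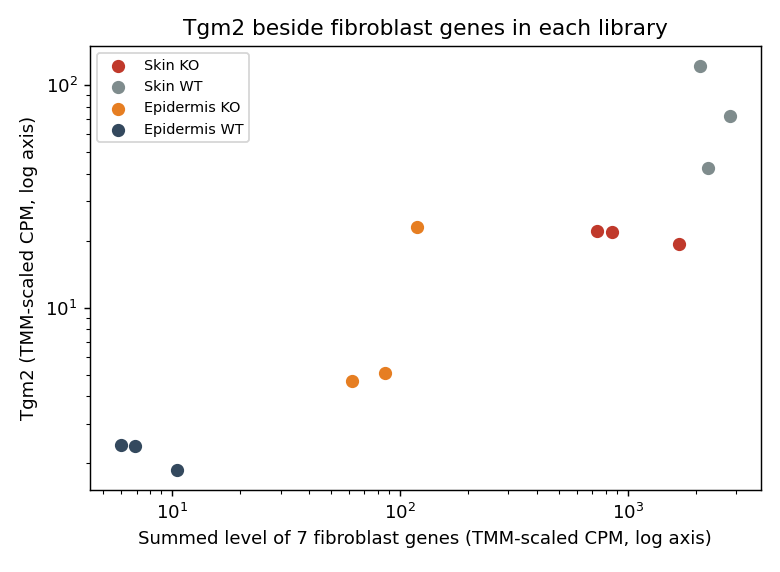
Tgm2 (TMM-scaled CPM, log axis) against the summed CPM of 7 fibroblast genes (log axis) in the 12 libraries, coloured by group. Skin KO libraries lie below and left of skin WT libraries, and epidermis KO libraries above and right of epidermis WT libraries, with the second epidermis KO library at 23.0 CPM of Tgm2 and 119 CPM of the fibroblast sum.

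Casp14 rose in both tissues. It had 444, 577 and 472 CPM in skin KO, against 51.6, 71.3 and 80.1 CPM in skin WT. Epidermal levels were 809, 575 and 788 CPM in KO, against 108, 106 and 89.7 CPM in WT. Every KO library was several times above every WT library of its tissue. Casp14 was 7.86-fold higher in skin KO (2.97 ± 0.21, adjusted p = 1.52e-04) and 7.21-fold higher in epidermis KO (2.85 ± 0.17, adjusted p = 1.03e-05). The difference of the 2 genotype effects was -0.04 ± 0.26 on the log2 scale (SE, adjusted p = 0.931), which was not called. The gene (ENSMUSG00000005355.8) lies on chr10 at 78711991-78718294, minus strand.

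Asprv1 had the smallest changes, and they ran opposite ways. In skin it had 1516, 1691 and 1535 CPM in KO, against 1167, 1259 and 1005 CPM in WT. In epidermis it had 640.1, 610.0 and 653 CPM in KO, against 761, 897 and 1242 CPM in WT. The groups did not overlap in either tissue, and the epidermis WT libraries spread the most. Asprv1 was 1.47-fold higher in skin KO (0.56 ± 0.16, adjusted p = 0.0272) and 1.51-fold lower in epidermis KO (-0.59 ± 0.18, adjusted p = 0.0239). The skin call was lost without the third WT library (adjusted p = 0.0553), without any of the KO libraries (0.0574, 0.0959 and 0.0852), without both KO libraries with Y-linked reads (0.176) and with a Y-linked covariate (0.0775 on a log and 0.0671 on a linear scale). The epidermal call was lost without any of the KO libraries (0.0546, 0.0766 and 0.0574) and with the linear covariate (0.105). The gene (ENSMUSG00000033508.7) lies on chr6 at 86628164-86629710, plus strand.

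With the Y-linked covariate on a log scale, which is above 0 in every epidermis KO library and in no epidermis WT library, Tgm2 alone of the 6 was called in epidermis, and 244 of all genes tested were called in place of 7014. Its log2 difference in that fit was 6.29 (adjusted p = 0.0254), and 3.14 with the linear covariate (0.00497), against 2.32 without a covariate. The other log2 differences with the log covariate were 0.47 for Tgm1 (adjusted p = 0.730), 1.57 for Tgm3 (0.393), 1.41 for Tgm5 (0.405), 1.96 for Casp14 (0.104) and -0.68 for Asprv1 (0.621). Of the genes of other lists that were run in the alternatives, Rptn alone was called in that epidermal fit (adjusted p = 8.62e-04). The epidermal calls of the others given below, such as Tgm7, Flg, Klk5, Furin, Krt1, Ctsd and Cstb, were lost in it. Lor was not run. In skin the calls of Tgm1, Tgm3, Tgm5 and Casp14 held with either covariate. Without KO replicates 1 and 3, which leaves only 1 skin KO library, their log2 differences were 1.86, 4.67, 0.99 and 3.21.

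Whether the knockout's effect differed between the tissues was tested in 1 fit of all 12 libraries, as the effect in epidermis minus that in skin. Of 15394 genes tested, 10.1% had a positive and 6.36% a negative difference. Among the 6 genes, Tgm2 had a positive difference (4.20 ± 0.81, adjusted p = 0.00717) and Asprv1 a negative one (-1.07 ± 0.24, adjusted p = 0.0138). Both held in each of the 22 alternatives run, with adjusted p-values up to 0.0287 for Tgm2 and up to 0.0393 for Asprv1. The Tgm2 difference was 3.04 without the second epidermis KO library. The differences of Tgm1 (-0.76 ± 0.27, adjusted p = 0.0738), Tgm3 (-1.03 ± 0.64, adjusted p = 0.285) and Tgm5 (0.69 ± 0.31, adjusted p = 0.146) were not called. Tgm1 was called with DESeq2 (adjusted p = 0.0371) and without the first epidermis KO library (0.0442), and Tgm5 without the first epidermis WT library (0.0150).

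Epidermis was next set against whole skin of the same genotype. In wild type, Tgm2 was 36.5-fold lower in epidermis than in skin (-5.19 ± 0.45, adjusted p = 1.38e-04) and Casp14 was 1.47-fold higher (0.56 ± 0.18, adjusted p = 0.0347), where 25.3% of 14596 genes were called lower and 17.5% higher. Tgm1 (0.07 ± 0.16), Tgm3 (1.34 ± 0.52), Tgm5 (-0.53 ± 0.26) and Asprv1 (-0.27 ± 0.23) were not called. Tgm3 was called in 6 of 15 alternatives, with adjusted p-values between 0.0112 (without skin WT replicate 1) and 0.0431 (limma-voom), and Tgm5 without epidermis WT replicate 1 (-0.88, adjusted p = 0.0167). In knockout, Asprv1 was lower in epidermis than in skin (-1.32 ± 0.10, adjusted p = 0.00151), Tgm1 was 1.58-fold lower (-0.66 ± 0.19, adjusted p = 0.0379) and Casp14 was higher (0.54 ± 0.16, adjusted p = 0.0439), where 15.9% of 14117 genes were called lower and 14.1% higher. Tgm2 was not called between the knockout tissues (-0.95 ± 0.58, adjusted p = 0.253), but was without the second epidermis KO library (-2.11, adjusted p = 0.00725). The Casp14 calls and the Tgm1 call were lost in several alternatives, whereas Tgm2 in wild type and Asprv1 in knockout held in all of them.

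Levels were compared between the genes in the deposited TPM, a measure that allows for transcript length and library size. Asprv1 led in every group, with 1557 ± 80.4 TPM in skin KO, 1167 ± 204 TPM in skin WT, 449 ± 77.4 TPM in epidermis KO and 659 ± 117 TPM in epidermis WT (SD, n = 3). Casp14 took the second place in knockout, with 311 ± 40.2 TPM in skin KO and 323 ± 71.0 TPM in epidermis KO, against 45 ± 15.9 TPM in skin WT and 44.8 ± 8.27 TPM in epidermis WT, where Tgm1 stood above it. The TPM of Casp14 was thus close between tissues, whereas TMM-scaled CPM put it 1.47-fold higher in epidermis WT and 1.45-fold higher in epidermis KO. Asprv1, not called between the WT tissues, had 972 to 1378 TPM in skin WT and 534 to 768 TPM in epidermis WT. The tissue differences of these genes thus depended on the scaling. In both knockout tissues Tgm1, Tgm3, Tgm5 and Tgm2 followed in this order. In skin WT the order after Asprv1 was Tgm1, Casp14, Tgm5, Tgm2 and Tgm3, and in epidermis WT it was Tgm1, Casp14, Tgm5, Tgm3 and Tgm2. Neighbours whose libraries overlapped were Asprv1 and Casp14 and Tgm1 and Tgm3 in epidermis KO, Tgm1 and Casp14, Casp14 and Tgm5, and Tgm5 and Tgm2 in skin WT, and Tgm1 and Casp14 in epidermis WT. No neighbours overlapped in skin KO.

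Among the 4 transglutaminases the balance differed with genotype. Tgm1 averaged 181 ± 30.0 TPM in skin KO and 62.7 ± 11 TPM in skin WT, and 80.5 ± 9.37 TPM in epidermis KO and 45.4 ± 8.73 TPM in epidermis WT. Tgm3 averaged 62.0 ± 6.14 TPM in skin KO and 2.97 ± 1.61 TPM in skin WT, and 54.6 ± 14.9 TPM in epidermis KO and 5.51 ± 2.20 TPM in epidermis WT. Of the summed TPM of the 4, Tgm3 made up between 18.5% and 23.1% in skin KO and between 0.90% and 3.43% in skin WT, and between 25.7% and 38.3% in epidermis KO and between 6.02% and 11.6% in epidermis WT. The share of Tgm2 averaged 2.79% in skin KO and 24.1% in skin WT, whereas it was 0.626, 3.67 and 0.936% in epidermis KO and 0.973, 0.753 and 1.05% in epidermis WT, where 1 KO library alone stood above the WT libraries. Tgm1 averaged 60.4% in skin KO and 48.9% in skin WT, and 45.4% in epidermis KO and 68.1% in epidermis WT. Tgm5 averaged 15.9% in skin KO and 24.6% in skin WT, and 22.2% in epidermis KO and 22.8% in epidermis WT. The sum itself lay between 259 and 329 TPM in skin KO, 119 and 142 TPM in skin WT, 160.2 and 187 TPM in epidermis KO, and 58.4 and 74.3 TPM in epidermis WT.

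**Figure D4:**
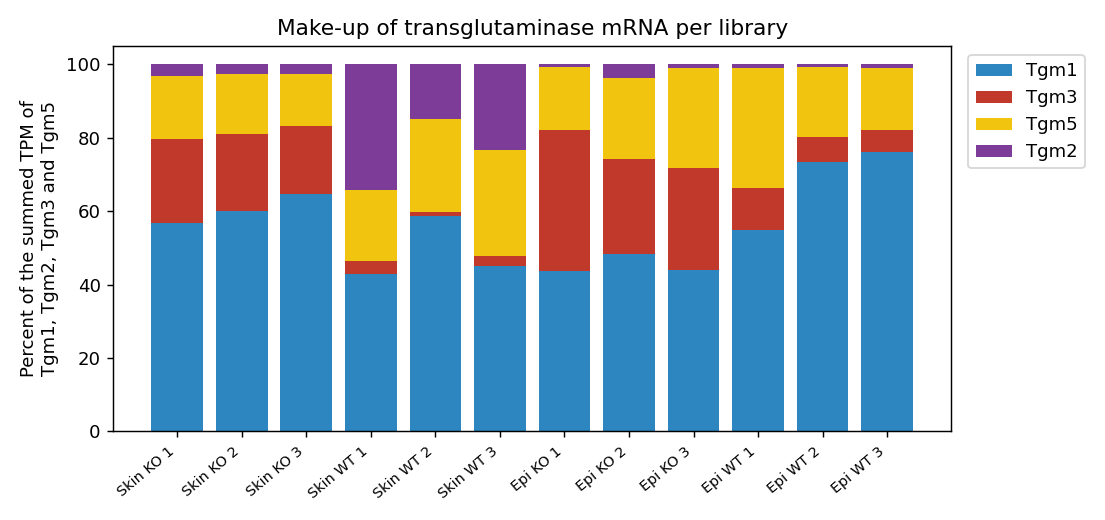
Share of each transglutaminase in the summed TPM of Tgm1, Tgm2, Tgm3 and Tgm5 (percent), 1 stacked bar per library, grouped as skin KO, skin WT, epidermis KO and epidermis WT. Tgm3 takes 18.5% or more in every KO library and 11.6% or less in every WT library, and Tgm2 reaches 34.1% in a skin WT library.

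The proteases shifted relative to each other as well. The TPM of Casp14 divided by that of Asprv1 was 0.186, 0.216 and 0.195 in skin KO, against 0.0282, 0.0360 and 0.0505 in skin WT. In epidermis it was 0.802, 0.598 and 0.766 in KO, against 0.0903, 0.0751 and 0.0460 in WT. The lowest KO ratio thus exceeded the highest WT ratio in each tissue, and epidermis KO stood highest of the 4 groups. Asprv1 made up 71.9 ± 1.46% of the summed TPM of the 6 genes in skin KO and 87.0 ± 1.81% in skin WT, and 47.1 ± 3.33% in epidermis KO and 85.2 ± 3.56% in epidermis WT (SD, n = 3). These ratios are descriptions, with no test of their own.

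**Figure D5:**
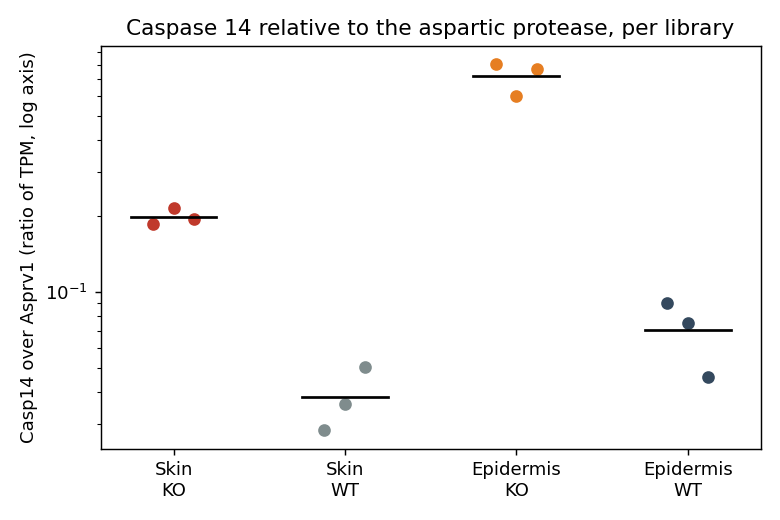
Ratio of the TPM of Casp14 to that of Asprv1 in every library (log axis), with KO left of WT in each tissue; points are libraries and lines are group means (n = 3). Skin KO lies between 0.186 and 0.216 and epidermis KO between 0.598 and 0.802, above all WT libraries, the highest of which is at 0.0903.

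Of 6 other members of the transglutaminase family, 3 could be tested. In skin KO 2 were lower and 1 was not called, and in epidermis KO 1 was higher, 1 lower and 1 not called. Tgm7, the neighbour of Tgm5, had 0.203 ± 0.116 CPM in skin KO against 7.56 ± 2.32 CPM in skin WT (SD, n = 3), from 9 and 388 reads, and was 33.4-fold lower (adjusted p = 3.97e-04). In epidermis it had 1.02 ± 0.755 CPM in KO against 15.5 ± 0.255 CPM in WT, from 41 and 581 reads, and was 14.7-fold lower (adjusted p = 2.41e-04). Tgm7 and Tgm5 thus differed in direction, although they lie side by side. F13a1, the clotting factor XIII subunit made by macrophages, had 23.1 ± 12.5 CPM in skin KO and 62.2 ± 6.92 CPM in skin WT (adjusted p = 0.0176), and in epidermis it had 55 reads in KO and 1 read in WT (adjusted p = 9.29e-04). Its skin call was lost with the log (0.0598) and linear (0.120) Y-linked covariate, without WT replicate 3 (0.0530) and without KO replicate 2 (0.0608). Its epidermal call was lost with the log covariate (0.0985). Tgm6, which follows Tgm3 at 62016 bases, averaged 8.59 ± 10.0 CPM in skin KO and 1.09 ± 1.08 CPM in skin WT (adjusted p = 0.0942). Tgm4, F13b and Epb42 were too low to test.

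Filaggrin and its processing genes showed no common direction. Of 17 genes, 6 were higher and 6 lower in skin KO, with a median log2 fold change of 0.13, and in epidermis KO 5 of 16 tested were higher and 5 lower, with a median of -0.23. Flg, filaggrin itself, had 268 ± 51.4 CPM in skin KO and 60.4 ± 1.65 CPM in skin WT (4.73-fold higher, adjusted p = 2.18e-04), and 147 ± 65.5 CPM in epidermis KO and 42.8 ± 6.17 CPM in epidermis WT (adjusted p = 0.00107). Its relative Flg2 went the other way, with 18.7 ± 12.5 CPM in skin KO and 587 ± 157 CPM in skin WT (adjusted p = 6.63e-04), and 23.5 ± 18.2 CPM in epidermis KO and 358 ± 83.9 CPM in epidermis WT (adjusted p = 0.00122). Klk5, a serine protease of desquamation, had 86.1 ± 10.2 CPM in skin KO and 173 ± 22.8 CPM in skin WT (adjusted p = 0.00356, or 0.0818 without KO replicates 1 and 3), and 75.1 ± 22.5 CPM in epidermis KO and 367 ± 89.3 CPM in epidermis WT (adjusted p = 1.81e-04). Furin, a proprotein convertase, rose in both tissues, to 135 ± 11.5 CPM in skin KO against 71.2 ± 10.9 CPM in skin WT (adjusted p = 0.00188), and to 111 ± 12.4 CPM in epidermis KO against 57.7 ± 6.86 CPM in epidermis WT (adjusted p = 6.70e-04). Repeats in Flg, Flg2 and Rptn can make reads hard to place. Of these, Flg alone had group sums of reads that were not whole, such as 3012.75 in skin WT. Reads shared with other genes were thus seen for Flg alone.

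The proteins that transglutaminases cross-link included large rises and large falls. Of 12 substrate genes, 6 were higher and 2 lower in skin KO (median 0.80), and 4 were higher and 1 lower in epidermis KO (median 0.95). Rptn, repetin, had 1566 ± 416 CPM in skin KO and 6.37 ± 3.10 CPM in skin WT (adjusted p = 1.27e-04), and 350.3 ± 52.4 CPM in epidermis KO and 1.57 ± 0.374 CPM in epidermis WT (adjusted p = 8.47e-07). Sprr1b, a small proline-rich protein, had 634 ± 261 CPM in skin KO and 1.80 ± 0.475 CPM in skin WT (adjusted p = 7.42e-05), and 263 ± 155 CPM in epidermis KO and 2.13 ± 0.939 CPM in epidermis WT (adjusted p = 4.39e-05). Its relative Sprr1a had 1048 ± 76.2 CPM in skin KO and 122 ± 44.6 CPM in skin WT (adjusted p = 4.52e-04), and 504 ± 111 CPM in epidermis KO and 129.5 ± 9.81 CPM in epidermis WT (adjusted p = 7.18e-05). Krt1, a keratin of the suprabasal layers and also a gene of the suprabasal marker list, was higher in KO by 2.87 (adjusted p = 2.58e-04) on the log2 scale in skin and by 2.70 (adjusted p = 9.63e-05) in epidermis. Lor, loricrin, the bulk protein of the envelope, was named after its values were seen: it averaged 539 CPM in skin KO and 3959 CPM in skin WT (adjusted p = 6.80e-04), and 226 CPM in epidermis KO and 4690 CPM in epidermis WT (adjusted p = 3.42e-04). The rises of Tgm1, Tgm3 and Tgm5 thus stood beside gains in some substrates and losses in others.

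Of 5 proteases and inhibitors that act on transglutaminases, 2 were higher and 3 not called in skin KO, and 2 were higher and 3 lower in epidermis KO (median -0.61). Ctsd, cathepsin D, reported to activate Tgm1, had 1963 ± 244 CPM in skin KO and 899 ± 119.7 CPM in skin WT (adjusted p = 0.00238), and 1377 ± 126 CPM in epidermis KO and 789.5 ± 156 CPM in epidermis WT (adjusted p = 0.00397). Cstb, an inhibitor of cysteine cathepsins, rose in both tissues, to 316 ± 51.2 CPM in skin KO against 95.4 ± 18.0 CPM in skin WT (adjusted p = 7.42e-04), and to 393 ± 73.2 CPM in epidermis KO against 183 ± 24.2 CPM in epidermis WT (adjusted p = 7.85e-04). Ctsl, cathepsin L, which processes Tgm3 in the mouse, had 406 ± 77.8 CPM in skin KO and 355 ± 35.3 CPM in skin WT (adjusted p = 0.227), and fell to 80.0 ± 7.09 CPM in epidermis KO against 179.9 ± 24.5 CPM in epidermis WT (adjusted p = 2.69e-04). Lgmn, legumain, had a log2 difference of -0.44 in skin (adjusted p = 0.180) and fell by 0.70 in epidermis KO (adjusted p = 0.00434). The difference between the tissues was called for 1 of these 5 genes, and lower in epidermis.

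Apart from Casp14, 9 caspases were listed, of which 4 were higher in skin KO (median 0.55) and 5 in epidermis KO (median 0.51), while the others were not called. Casp4, a caspase of the inflammatory branch, had 26.7 ± 4.93 CPM in skin KO and 13.9 ± 0.335 CPM in skin WT (adjusted p = 0.00317), and 30.2 ± 3.17 CPM in epidermis KO and 14.8 ± 2.22 CPM in epidermis WT (adjusted p = 7.98e-04). Casp1, which matures interleukin 1 beta, rose by a log2 difference of 0.55 in skin KO (adjusted p = 0.0153) and 0.88 in epidermis KO (adjusted p = 0.00239). Casp8, an initiator of death receptor signalling, rose by 0.63 (adjusted p = 0.00717) in skin KO and 0.51 (adjusted p = 0.0432) in epidermis KO. The epidermal Casp8 call was lost in 8 of 17 alternatives (adjusted p up to 0.475), and the skin calls of Casp1 and Casp8 in 5 and 2 of 18 (up to 0.0816 and 0.0718). Casp12 had 6.96 CPM in skin KO and 7.54 CPM in skin WT (adjusted p = 0.954), and rose to 4.25 ± 1.66 CPM in epidermis KO against 0.924 ± 0.353 CPM in epidermis WT (adjusted p = 0.00224). The log2 fold changes of these 4 caspases were smaller than the 2.97 and 2.85 of Casp14 in the same tissue.

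Finally, the genes whose levels ran most alike with each member were sought among 10677 genes of at least 5 CPM on average, by Pearson's r of log2(CPM + 1) over the 12 libraries. These libraries form 4 groups, so r reads the group means as well as the spread within groups and is a description. Casp14 was most like Slc35f2 (r = 0.993), Smpdl3a (0.989) and Bdh1 (0.988). Tgm1 was most like Wdr43 (0.989), Noct (0.981) and Klk12 (0.980). Tgm3 was most like Sept9 (0.975), Surf4 (0.975) and Cct6a (0.974), and Tgm5 was most like Sec24d (0.957), Cluh (0.957) and Noc3l (0.956). Tgm2 was most like Lrg1 (0.987) and Uaca (0.981). Asprv1 had the lowest r at its 3 best matches, Cdv3 (0.943), Acp7 (0.941) and Smpd1 (0.940). Among the 6 genes themselves, Tgm3 and Casp14 were the closest pair (r = 0.95). Asprv1 had r between -0.21 and 0.39 with the other 5, and Tgm2 between -0.24 and 0.39.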

How the data were processed

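RNA of mouse whole skin and epidermis was sequenced with the TruSeq Stranded mRNA kit from 1 ug of total RNA, per the labels' protocols. The deposited tables hold an expected count, a TPM and an FPKM value and an effective length for each of 47643 genes, per the file headers. Expected counts were estimated by RSEM with STAR 2.5.1, after bcl2fastq 2.17, on mm10, per the submitters' processing notes. Which annotation was used, and whether counting used the strand, is not stated by these sources. RSEM splits shared reads by probability, and 8.42% to 9.98% of the deposited count values per library were not whole. FPKM and effective length served only to check the order of levels and as offsets in an alternative.

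Groups and replicate numbers came from the sample titles. Of the gene IDs, 47224 matched a symbol in GENCODE mouse release 21 without version and 419 did not. Expected counts were rounded and tested with edgeR 4.0.16 (R 4.3.3): filterByExpr with default settings, TMM factors, glmQLFit and glmQLFTest, and Benjamini-Hochberg correction over all genes of the fit, called under 0.05. Each tissue, and each pair of tissues, was fitted alone, and the difference of the genotype effects in 1 fit of all 12 libraries. Standard errors are the log2 fold change divided by the square root of F. The fit was also run on simulated counts, with the same dispersion for every gene and few changed genes. These data differ from that setting, so the run checked the code only. No 2 replicates were the same library (Spearman's rho 0.949 to 0.989).

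Members and lists were chosen with earlier results of these data known. Named genes were the 6 members, Adam17, Flg, up to 4 genes of each pathway list with the smallest adjusted p in either tissue, and the 3 genes most like each member, of which 1 is not reported here. Same-numbered skin libraries deviated together from their group means (r = 0.321, 0.304 and 0.256), and skin KO 3 and skin WT 2 did so less (r = 0.199). The labels state no pairing, so the main fits were unpaired and a replicate block was run as an alternative only. Alternatives were DESeq2 1.42.0, limma-voom (limma 3.58.1), other scaling, no filter, a minimum of 2-fold, length offsets, a replicate block, a covariate of Y-linked CPM on a log scale and each library left out. A linear covariate and the fit without both skin KO libraries with Y-linked reads were added after seeing the data. That fit leaves 1 skin KO library, so it measures no spread within the skin KO group. Promoter windows are from RefSeq (GRCm38.p6).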

Additional observations from a re-analysis of the deposited data

Results flagged for a closer look

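The effect of the knockout on Tgm2 differed between epidermis and whole skin by 4.20 on the log2 scale in the test of the difference itself. It was higher in 3 of 3 epidermis KO libraries than in epidermis WT and lower in 3 of 3 skin KO libraries than in skin WT. For Asprv1 the same difference was -1.07, with lower values in all epidermis KO libraries and higher values in all skin KO libraries than in the WT libraries of the tissue.

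Y-linked genes held 5435 reads in the 6 KO libraries and 0 in the 6 WT libraries. The second skin KO library had none. In epidermis all 4 Y-linked genes were tested and called higher in KO, and in skin none of them passed the expression filter. Their summed CPM was used as a covariate in alternatives only.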

How the results depend on the processing

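Calls rest on 3 libraries a group, Y-linked reads go with the knockout, and differences near the threshold, such as those of Asprv1 within a tissue, depend on single libraries. Of 1355 recomputed results, 1194 stayed the same, 107 became weaker, 15 gained a call, 22 moved and 17 changed sign. For a gene, the same means that direction and call were kept, and weaker that the call was lost. Some of these results were counts of members called, level orders and shares, which were the same if within a set margin. A count of members that fell beyond its margin was weaker. The members called by leave-one-out ranged from 5 to 6 in skin, 5 to 6 in epidermis, 2 to 3 for the difference between tissues, 1 to 3 between the WT tissues and 1 to 3 between the KO tissues. In epidermis 1 member was called with the Y-linked covariate on a log scale, and 4 with the linear one. In skin 4 were called with each. Between the WT tissues 1 was called at a minimum of 2-fold and 1 with length offsets, and between the KO tissues 1 at 2-fold, 1 with the replicate block and 1 with either covariate. The covariate could not be fitted between WT tissues, where it is 0.

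The replicate block changed no member's call in skin, in epidermis or in the difference between tissues; between WT tissues, whose numbers did not pair in the check (r = -0.06, 0.11 and -0.40), it lost Casp14 (adjusted p = 0.0677) and called Tgm3 (1.51, 0.0192), and between KO tissues it lost Tgm1 (0.0861) and Casp14 (0.119). Same-numbered epidermis libraries had r = 0.0972, 0.191 and -0.108. All genes called numbered 6780 in skin, against 4156 with the log covariate and 3905 at 2-fold. In epidermis they numbered 7014, against 244 and 3261 in these settings. Between WT tissues 6258 became 3653 at 2-fold, between KO tissues 4227 became 1753 at 2-fold, 2805 with the block and 2328 without skin KO 3, and for the difference 2539 became 1393 without skin KO 2 and 3940 without skin WT 1.

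Signs changed for a few values. Skin Casp12 was 0.0038 with the block, 0.024 with the linear covariate, and between -0.27 and 0.18 without a library. Skin Tgm6 was -0.62 and -0.29 with the log and linear covariates and -0.46 without both KO libraries. Skin Ctsl was -0.00086 with the linear covariate, and epidermis Flg2 was 0.48 with the log covariate, against -3.91 without it. Between KO tissues, Tgm3 was between -0.073 (without epidermis KO 1) and 0.57 without a library. The Casp14 difference between tissues was 0.00094 with the log covariate and between -0.18 and 0.12 without a library. By expected counts, Asprv1 made up 58.2% of the 6 genes in skin KO, 77.7% in skin WT, 33.2% in epidermis KO and 76.3% in epidermis WT. Causes were not tested.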
